A study of Mus musculus with 8 samples.

Results

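ATP-binding cassette (ABC) transporter genes outside the Abca5 to Abca9 cluster were examined in mouse hepatocytes kept static or exposed to shear stress. They were chosen by symbol alone: of the 17276 genes listed in every file, 47 have a symbol of the form Abca to Abcg followed by a number. The 5 genes of the Abca5 to Abca9 cluster and the bile transporter genes Abcb11 and Abcc2 were set aside, which left 40 genes. Of these, 31 had enough reads to be tested and 9 did not.

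The series holds 8 RNA-seq libraries of hepatocytes from wild-type male C57BL/6N mice aged 6 to 8 weeks. The groups are 4 static and 4 shear stress libraries, numbered 1 to 4 in each, and treatment is the single difference that the labels give between them. The labels give neither the size and duration of the shear stress nor whether same-group libraries stem from separate animals or cultures, so p-values measure the spread between these libraries, which may be technical. Library totals were 15067056 to 17935566 estimated reads in static and 16225843 to 16732203 in shear stress libraries. With these totals scaled as described below, 3 reads correspond to 0.157 to 0.227 CPM. CPM is the count of a gene scaled to the size of its library. A count of 0 allows up to 3 reads by counting error alone.

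ABC proteins bind and hydrolyse ATP and are sorted into subfamilies A to G by sequence. Most are membrane pumps. In hepatocytes, some members sit in the canalicular membrane and export phospholipid, sterol and drugs into bile, others sit in the basolateral membrane and return conjugates to blood, and others serve mitochondria, peroxisomes and lysosomes. Subfamilies E and F have no membrane domains and act on ribosomes.

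Values are CPM after scaling by the trimmed mean of M-values (TMM), and a fold change is shear stress over static. A gene is called when its adjusted p from the quasi-likelihood F test of edgeR, with Benjamini-Hochberg adjustment over all 11747 tested genes, is below 0.05. Hepatocyte identity was checked first: the 9 hepatocyte markers (such as Alb, Ttr and Cps1) summed to between 73983.5 and 94938.2 CPM in static and between 49771.8 and 66718.8 CPM under shear stress. Alb averaged 62210.8 and 41826.7 CPM of this. Of the 9, 7 were called lower (77.8%, against 23.7% of all tested genes). Hnf4a was not called and lay on the higher side, with a log2 fold change of 0.13 (adjusted p = 0.59). Cyp3a11, at -0.85, was not called either (adjusted p = 0.0941, and 6.27e-06 with replicate number as a block). Endothelial markers summed to between 9.72 and 22.7 CPM in static and between 4.7 and 19.8 CPM under shear stress. Of the 5 tested, 1, Pecam1, was called lower, with 5.7 to 14.4 CPM in static and 1.1 to 3.94 CPM under shear stress (adjusted p = 0.00324). The other 4, Cdh5, Kdr, Stab2 and Lyve1, were not called and lay on the higher side, with log2 fold changes of 0.73, 0.33, 0.43 and 0.38. Lymphocyte markers summed to between 2.28 and 2.71 CPM in static and between 0 and 0.417 CPM under shear stress, without overlap; the single one tested, Cd79a, was called lower, from 1.93 ± 0.174 to 0.119 ± 0.201 CPM (adjusted p = 0.00172). Stellate markers summed to between 2.4 and 9.13 CPM in static and between 3.47 and 7.98 CPM under shear stress. Reln averaged 4.37 and 4.11 CPM of this, while Des, Lrat, Pdgfrb, Col1a1, Col3a1 and Acta2 averaged at most 0.375 CPM in either group.

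Macrophage markers summed to between 22.4 and 55.9 CPM in static and between 16.7 and 56.7 CPM under shear stress, and Cd68 averaged 40.5 and 36.7 CPM of this, while Adgre1, Csf1r and Clec4f averaged at most 0.0855 CPM in either group. Cholangiocyte markers summed to between 131 and 1317.9 CPM in static and between 215 and 1703.7 CPM under shear stress. Spp1 averaged 589 and 783 CPM of this and Sox9 58.7 and 49.9 CPM, while Krt19 averaged at most 0.156 CPM in either group. Of the 3 tested, 0 were called without a block (adjusted p = 0.715 for Spp1, 0.0783 for Epcam and 0.603 for Sox9). With replicate number as a block, Spp1 (adjusted p = 0.0467) and Epcam (0.0499), which averaged 0.487 and 0.996 CPM, were called higher, and Sox9 was not (0.769). Fewer cells of a type and less RNA per cell cannot be told apart in bulk libraries, and the part of these marker changes in the results that follow was not tested.

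Under shear stress, 4 of the 31 tested ABC genes were called higher and 4 lower in the main fit, which did not use the replicate number. The higher genes were Abca1, Abcc9, Abcc10 and Abcd4, with rises of 1.53 to 2.34 times. The lower genes were Abca7, Abcb4, Abcb6 and Abcc6, with falls of 1.66 to 1.98 times. The other 23 were not called. These 8 genes are 25.8% of those tested, while 48.6% of all tested genes were called, 24.9% higher and 23.7% lower. By subfamily, to be read beside the same shares, 50% of the tested genes were called in A, 25% in B, 37.5% in C and 25% in D. In E with F and in G it was 0%. The median log2 fold change was 0.02 over the ABC genes and -0.01 over all tested genes. In 7 of the 31 (22.6%) the CPM values of the groups did not overlap (Abca2, Abca7, Abcb6, Abcb9, Abcc9, Abcc10 and Abcd4), against 45.3% of all tested genes.

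**Figure D1:**
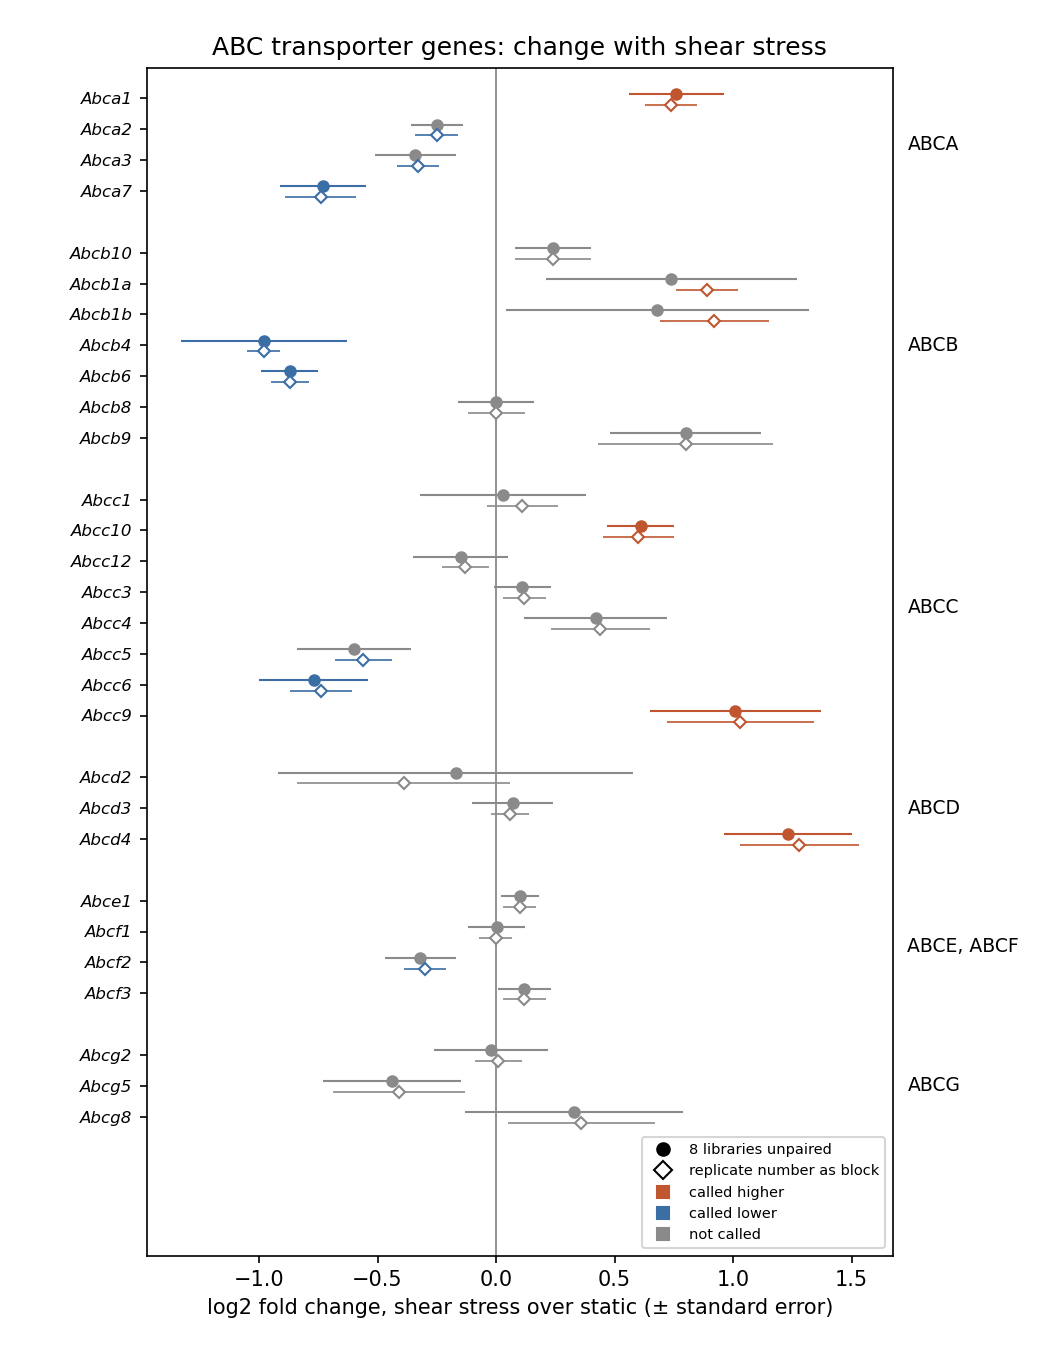
Log2 fold change of shear stress over static for 29 tested ABC genes, grouped by subfamily. Filled circles are the fit of 8 unpaired libraries, open diamonds the fit with replicate number as a block, bars are ± 1 standard error and colour marks the call. Bars of Abcb1a, Abcb1b and Abcb4 are much shorter in the blocked fit.

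Same-numbered libraries deviated together from their group means, so a second fit took the replicate number as a block. With that block, 15 ABC genes (48.4%) were called, 6 higher and 9 lower, against 61.1% of all genes (30.1% higher, 31.0% lower). It added Abcb1a and Abcb1b to the higher genes and Abca2, Abca3, Abcc5 and Abcf2, among others, to the lower ones. The scaling also moved the split. With upper quartile factors 6 ABC genes were called higher and 3 lower, against 31.1% and 16.9% of all genes. With library totals 8 were called higher and 3 lower, against 35.4% and 13.1%. With limma on deposited FPKM the counts were 8 higher and 1 lower, against 33.1% and 13.0%. These settings raise the median of all tested genes by 0.14, 0.22 and 0.21 on the log2 scale, and the median of the ABC genes moves with it, to 0.16, 0.25 and 0.25.

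**Figure D2:**
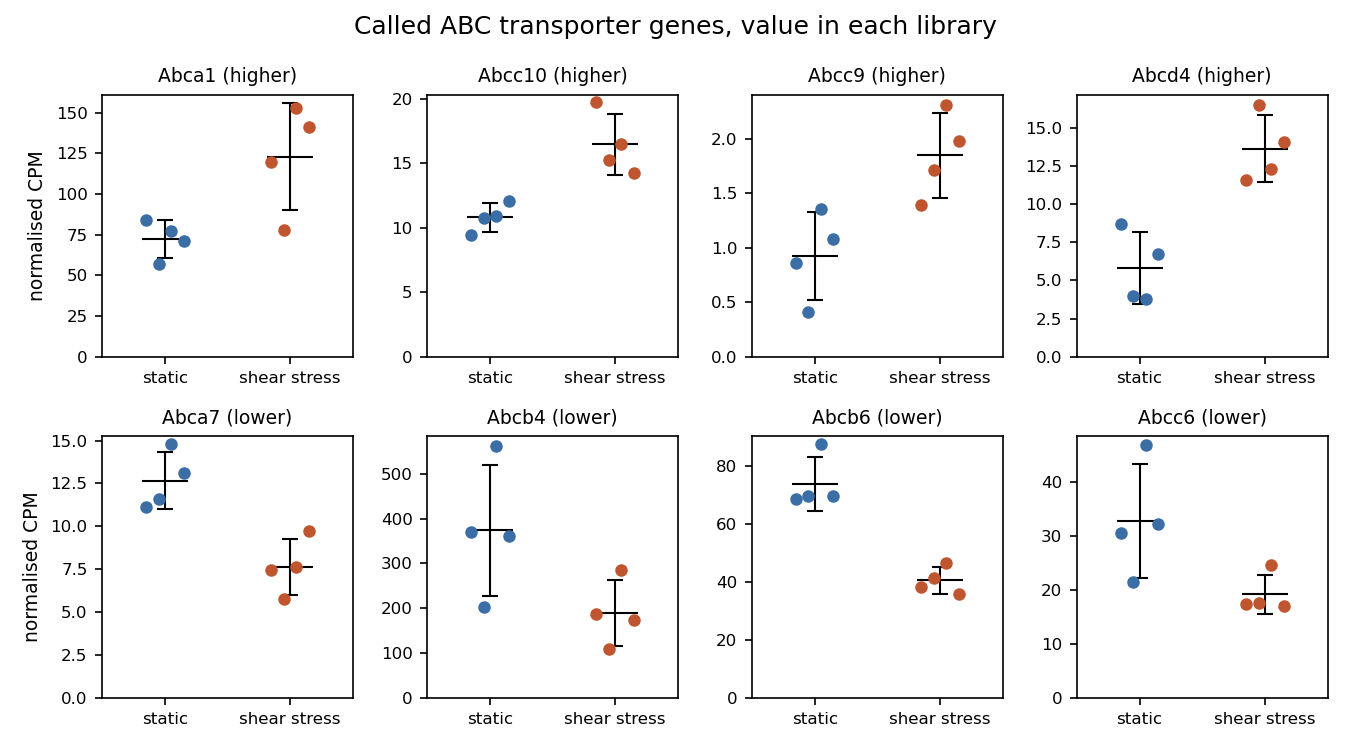
Normalised CPM of the 8 called ABC genes in each library; points are libraries, horizontal lines are means and bars are ± SD (n = 4). The groups overlap for Abca1, Abcb4 and Abcc6 and are separate for the other 5.

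Compared per transcript length, in the deposited TPM, the ABC genes spanned a wide range of levels. Abcc3, a basolateral exporter of glucuronides and bile acids, averaged 123 TPM over all libraries and Abcb4, the canalicular phosphatidylcholine floppase, 101 TPM. Next came the ribosome-associated genes Abcf1, Abce1 and Abcf2 at 71, 70.1 and 65.4 TPM, then Abcd3 at 38.3, Abcg2 at 32.9 and Abcb6 at 27 TPM. Over the 8 libraries, the ranges of neighbours in this order overlapped. Abcg5 and Abcg8 were low at 1.34 and 0.996 TPM, and Abcd2, Abcc9 and Abcb9 were lower still, at 0.315, 0.269 and 0.269 TPM. The summed level of the 40 genes was 683 ± 44.3 TPM in static and 730 ± 72.6 TPM under shear stress (SD, n = 4), and Abcc3 with Abcb4 made up 34.4 ± 6.24% and 29.1 ± 3.45% of it. TPM carries no TMM scaling. In TMM-scaled CPM the 40 genes summed to between 1912.5 and 2279.0 in static and between 1856.5 and 2121.4 under shear stress, without a rise.

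**Figure D3:**
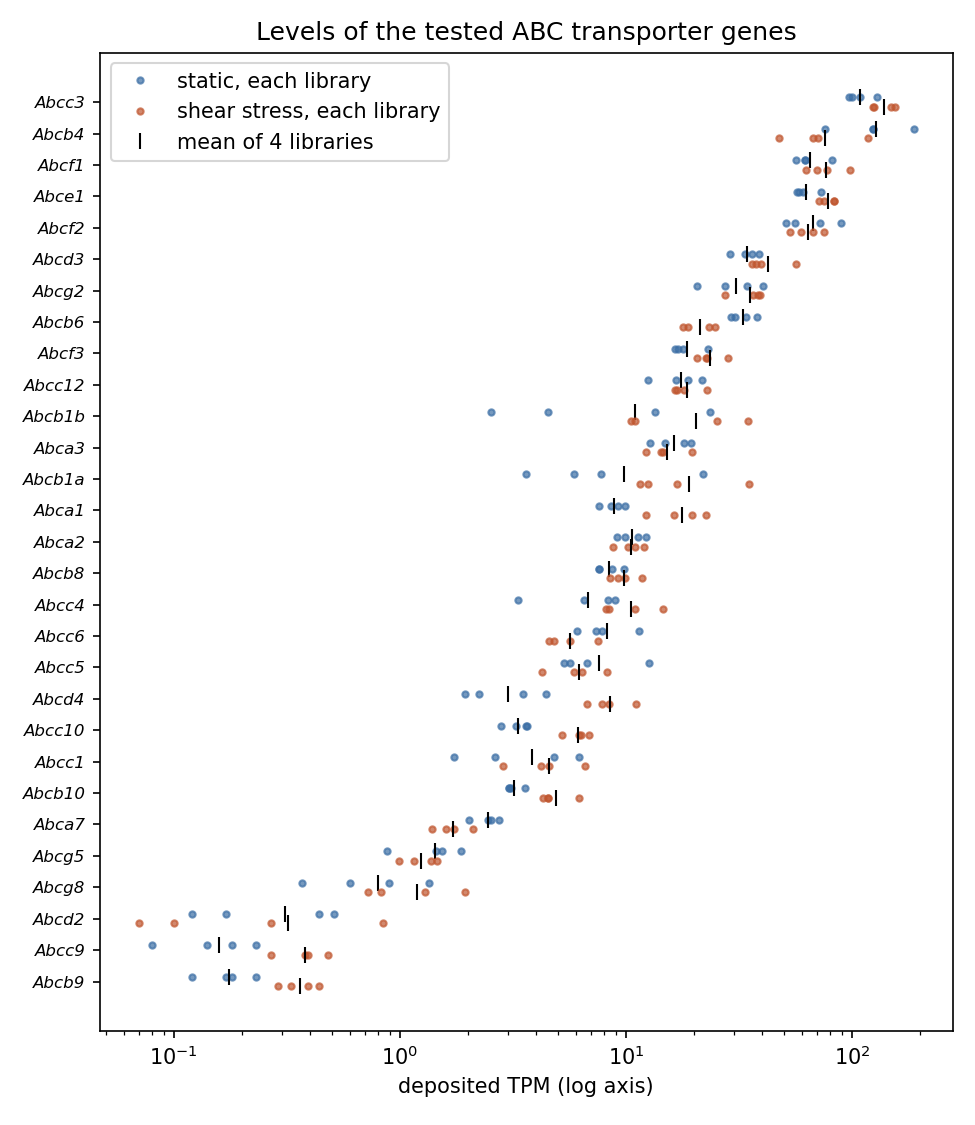
Deposited TPM of 29 tested ABC genes on a log axis, ordered by the mean over all libraries; points are single libraries and vertical marks are means of 4. Abcc3 and Abcb4 lie at the top, and Abcb4 has its shear stress mean to the left of its static mean.

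In subfamily A, 4 of 10 genes were tested, 1 was called higher and 1 lower, and the median log2 fold change was -0.30. Abca1 (chromosome 4, 53030789 to 53159988, GRCm38) encodes the pump that loads cholesterol and phospholipid onto apolipoprotein A1 and so starts high-density lipoprotein. Static libraries 1 to 4 had 84.1, 56.7, 77.5 and 71.1 CPM and shear stress libraries 119.7, 78.1, 153 and 141 CPM. Every shear stress library was above the static library of its number, and shear stress library 2 lay within the static range. The means were 72.4 ± 11.7 and 123 ± 32.9 CPM, a log2 fold change of 0.76 ± 0.20 (SE) with adjusted p = 0.0129. Abca1 was called in all 15 alternative fits, with log2 fold changes from 0.64 to 0.98.

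Abca7, a relative of Abca1 known for phospholipid transport and phagocytosis (chromosome 10, 79996453 to 80015572), moved the other way. Static libraries had 11.1, 11.6, 14.8 and 13.1 CPM and shear stress libraries 7.47, 5.74, 7.62 and 9.74 CPM. The groups did not overlap, and the log2 fold change was -0.73 ± 0.18 with adjusted p = 0.00866. In GENCODE M21 models the nearest upstream gene on the same strand, Cnn2 (calponin 2, an actin-binding protein), ends 0.432 kb before it, and Cnn2 rose from 1.57 ± 0.666 to 9.64 ± 8.17 CPM (adjusted p = 0.0115). On deposited FPKM the Abca7 call was lost, with adjusted p = 0.0511.

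Abca2, an endolysosomal lipid transporter, had 68.8 ± 8.44 CPM in static and 57.8 ± 4.16 CPM under shear stress (log2 fold change -0.25 ± 0.11, adjusted p = 0.0784). Abca3, which fills the lamellar bodies of lung surfactant cells with phospholipid, had 82.3 ± 17.1 and 65.1 ± 12.3 CPM (-0.34 ± 0.17, adjusted p = 0.131). Both were below the static value in all 4 numbered pairs, and with the replicate block both were called, with adjusted p = 0.0331 and 0.00684. Without shear stress library 3, Abca3 was called in the unpaired fit too (adjusted p = 0.042). The other 6 genes of the subfamily were not tested: the highest count in any library was 13 for Abca4, the retinal transporter, 5 for Abca14, 2 for Abca17 and 1 each for Abca12, Abca13 and Abca15.

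All 8 genes of subfamily B were tested, and 2 were called lower and 0 higher, with a median of 0.12. DESeq2 called 0 higher as well, and at an unadjusted p below 0.05 edgeR had 1 higher, Abcb9. Abcb1a, Abcb1b and Abcb4 lie one after another on the plus strand of chromosome 5. Abcb1a (8567091 to 8748575) and Abcb1b (8798147 to 8866314) both encode P-glycoprotein, which expels drugs and other hydrophobic compounds, and Abcb4 (8893614 to 8959226) encodes the floppase that supplies phosphatidylcholine to bile.

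The stretch just upstream of the transcript start is shown for these 3 neighbours, which moved in different directions, and for Abca1 and Abcb6. The calls of Abca1 and Abcb6 held in every fit, as did those of Abcc10 and Abcd4, which are not shown. Each window is the 250 bases before a RefSeq start in GRCm38.p6, written 5′ to 3′ on the gene's strand, with capitals marking matches on either strand to 1 of 5 motifs.
Abca1, chr4:53159896-53160145, minus strand: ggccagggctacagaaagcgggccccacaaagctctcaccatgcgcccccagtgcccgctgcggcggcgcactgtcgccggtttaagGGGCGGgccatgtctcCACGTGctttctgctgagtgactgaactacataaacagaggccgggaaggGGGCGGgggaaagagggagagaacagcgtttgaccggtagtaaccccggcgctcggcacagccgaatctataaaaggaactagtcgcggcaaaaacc
Abcb1a, chr5:8566841-8567090, plus strand: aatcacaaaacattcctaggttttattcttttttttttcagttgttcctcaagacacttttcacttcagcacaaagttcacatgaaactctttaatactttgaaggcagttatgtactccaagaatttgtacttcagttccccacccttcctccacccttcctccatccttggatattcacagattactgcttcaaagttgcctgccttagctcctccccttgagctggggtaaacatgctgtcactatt
Abcb1b, chr5:8797897-8798146, plus strand: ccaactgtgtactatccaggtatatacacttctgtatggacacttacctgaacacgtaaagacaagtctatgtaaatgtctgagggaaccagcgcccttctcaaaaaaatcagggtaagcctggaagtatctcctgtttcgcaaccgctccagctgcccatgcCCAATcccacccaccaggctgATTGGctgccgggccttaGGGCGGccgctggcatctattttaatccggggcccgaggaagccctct
Abcb4, chr5:8893471-8893720, plus strand: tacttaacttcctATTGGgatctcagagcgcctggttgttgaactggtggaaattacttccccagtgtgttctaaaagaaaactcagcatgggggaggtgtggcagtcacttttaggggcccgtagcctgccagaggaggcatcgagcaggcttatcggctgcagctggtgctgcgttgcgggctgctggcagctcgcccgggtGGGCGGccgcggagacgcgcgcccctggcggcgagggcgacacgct
Abcb6, chr1:75180393-75180642, minus strand: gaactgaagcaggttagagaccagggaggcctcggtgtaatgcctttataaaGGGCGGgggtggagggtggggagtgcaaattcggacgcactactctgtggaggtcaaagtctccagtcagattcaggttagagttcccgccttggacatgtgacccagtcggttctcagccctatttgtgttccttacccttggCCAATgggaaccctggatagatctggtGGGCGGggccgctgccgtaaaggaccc

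The motifs searched were the CCAAT box (CCAAT), the GC box (GGGCGG), the AP-1 site (TGANTCA), the cAMP response element (TGACGTCA) and the E-box (CACGTG); none of these contains another. The Abcb1a window held none of them and had a GC content of 40.4%, below the 52.4% median of all windows. The Abcb1b window, 231 kb further along, held 2 CCAAT boxes and 1 GC box, and that of Abcb4, 95.6 kb beyond, held 1 of each. The Abca1 window held 2 GC boxes and 1 E-box, and the Abcb6 window 1 CCAAT box and 2 GC boxes. The windows of Abca1 and Abcb4 reach into the gene spans given in the text, so the starts used for them are not the outermost ones.

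Of the 40 ABC genes, 29 matched a RefSeq promoter window. A CCAAT box was in 11 of the 29 (37.9%), against 37.5% of 27025 genes and 33.8% of 32851 windows. A GC box was in 14 (48.3%), against 35.4% of genes and 32.7% of windows. The E-box was in 4 (13.8%), against 6.86% and 6.02%, the cAMP response element in 2 (6.9%), against 1.77% and 1.55%, and the AP-1 site in 0, against 7.82% and 6.75%. These are matches of letters and describe the sequence alone.

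Abcb4 had 369.6, 203, 561 and 361 CPM in static libraries 1 to 4 and 188, 108, 286 and 173 CPM under shear stress 1 to 4. Each shear stress library had 0.509, 0.531, 0.511 and 0.48 times the level of the static library of its number, while the groups overlapped and the numbers differed in level. The means fell from 373 ± 146 to 189 ± 73.8 CPM, a log2 fold change of -0.98 ± 0.35 with adjusted p = 0.0422. With the replicate block the estimate was the same and its error smaller, -0.98 ± 0.07 with adjusted p = 3.66e-06. The unpaired call was lost in 10 of 15 alternatives, with adjusted p between 0.0663 (upper quartile factors) and 0.112 (without static library 3); leaving out static library 1 or 4, or shear stress library 1, 2 or 4, also ended it.

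Abcb1a had 24.5, 79.6, 14.6 and 31.7 CPM in static and 45, 110.1, 38.4 and 59 CPM under shear stress. Abcb1b had 8.75, 71.7, 15.4 and 45.5 CPM in static and 33.2, 90.4, 29.2 and 74.4 CPM under shear stress. Both were higher in the shear stress library of all 4 numbers, by 1.83, 1.38, 2.63 and 1.86 times for Abcb1a and by 3.79, 1.26, 1.9 and 1.64 times for Abcb1b. Both were at their highest in number 2, where Abcb4 was at its lowest.

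The unpaired fit called neither P-glycoprotein gene. Its log2 fold change was 0.74 ± 0.53 (adjusted p = 0.27) for Abcb1a and 0.68 ± 0.64 (adjusted p = 0.408) for Abcb1b. With the replicate block both were called, at 0.89 ± 0.13 (adjusted p = 0.000395) and 0.92 ± 0.23 (adjusted p = 0.00951). The unpaired values rested on single libraries. Without static library 2 the log2 fold change was 1.41 for Abcb1a (adjusted p = 0.0255) and 1.28 for Abcb1b (0.126), and without shear stress library 2 it was 0.34 (0.63) and 0.37 (0.695). Without static library 3 it was 0.48 for Abcb1a (0.465) and 0.43 for Abcb1b (0.626), and without static library 1 it was 0.36 for Abcb1b (0.638). In the same libraries Spp1, the most abundant of the cholangiocyte markers, was also lowest in number 2 (55.9 and 169 CPM), and its part in these values was not tested.

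**Figure D4:**
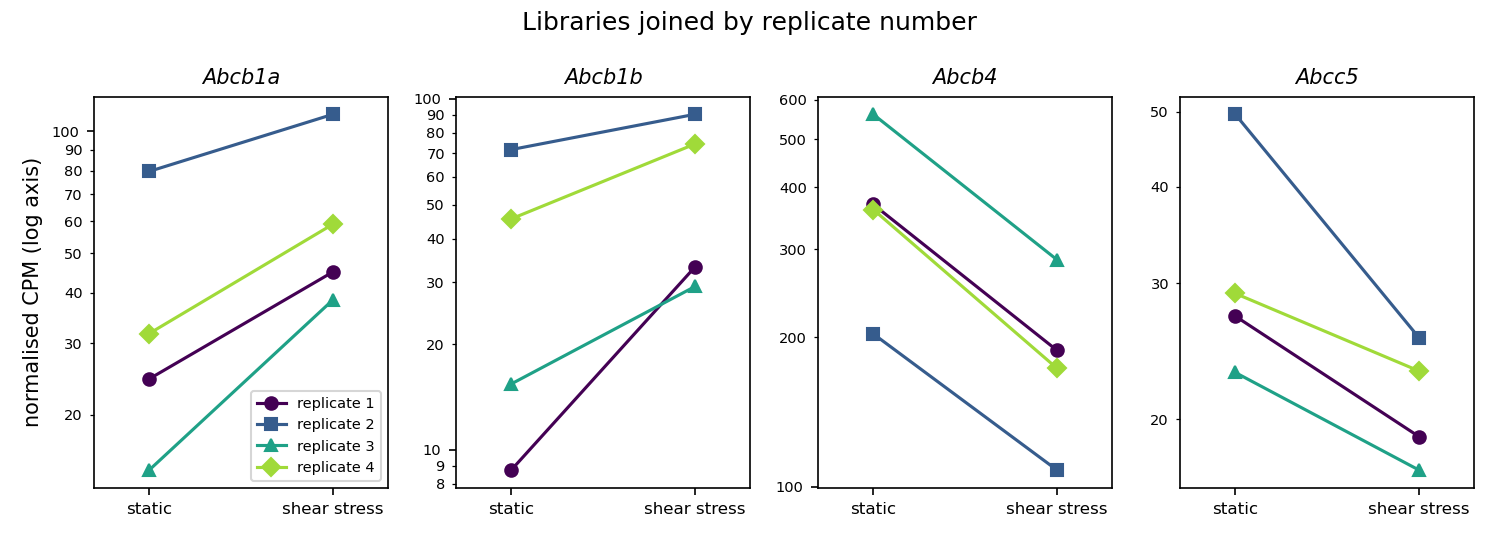
Normalised CPM (log axis) of Abcb1a, Abcb1b, Abcb4 and Abcc5 in static and shear stress libraries, with a line joining the libraries of each replicate number. All lines of Abcb1a and Abcb1b rise and all lines of Abcb4 and Abcc5 fall, while the numbers differ in level.

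The balance of the P-glycoprotein genes was compared as a ratio of TPM. Abcb1b over Abcb1a was 0.429, 1.09, 1.25 and 1.73 in static and 0.883, 0.989, 0.914 and 1.51 under shear stress. The difference of the mean log2 ratios was 0.06, with a two-sided exact permutation p of 0.943, raw and adjusted over 2 ratios. By number the ratio was lower in 3 and higher in 1. These genes resemble each other: 15.5% of the 50-base words of the Abcb1a transcript also occur in Abcb1b and 18% in the reverse direction, so the division of reads between them is uncertain.

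Abcb6 (chromosome 1, 75171640 to 75180392), a porphyrin transporter of mitochondrial and other membranes, had the smallest adjusted p of the 31 tested ABC genes. Static libraries had 68.7, 69.6, 87.8 and 69.6 CPM and shear stress libraries 38.4, 41.4, 46.7 and 35.8 CPM. The groups were well apart, and the means of 73.9 ± 9.29 and 40.6 ± 4.69 CPM gave a log2 fold change of -0.87 ± 0.12 with adjusted p = 0.000471. It was called lower in all 15 alternatives, from -0.94 to -0.64.

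Atg9a, a membrane protein of autophagy, lies 0.468 kb upstream of Abcb6 on the same strand. It had 70.7, 60.2, 79 and 60.8 CPM in static and 40.8, 40.4, 40.3 and 40.4 CPM under shear stress, a log2 fold change of -0.74 ± 0.11 with adjusted p = 0.000539. Both genes were thus lower in all 4 shear stress libraries than in any static one. An annotated processed transcript on the same strand, Gm29253, shares 2932 exon bases with Abcb6 and holds 90.3% of its 50-base words, and whether reads from it enter the Abcb6 value was not tested.

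Abcb8, Abcb9 and Abcb10 were not called. Abcb10, of the inner mitochondrial membrane and linked to heme synthesis, had 12.3, 9.08, 10.5 and 10.2 CPM in static and 12.7, 15.4, 11.1 and 10.5 CPM under shear stress, ranges that overlap (log2 fold change 0.24 ± 0.16, adjusted p = 0.234). Library totals and deposited FPKM called it higher, with adjusted p = 0.0478 and 0.0162. Abcb8, also of the inner mitochondrial membrane, had 18.8 CPM in each group (log2 fold change 0.00022 ± 0.16, adjusted p = 0.999). Abcb9, the lysosomal peptide transporter, was at 0.435 ± 0.0953 and 0.774 ± 0.16 CPM; its groups did not overlap, but the log2 fold change of 0.80 ± 0.32 did not pass (adjusted p = 0.0627). It passed with upper quartile factors, library totals and deposited FPKM (0.0375, 0.0307 and 0.0475).

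Neighbours in the pathways of heme and iron-sulfur clusters were counted beside these genes. Of 15 tested genes, 0 were called higher and 5 lower, and their median was -0.25. The called share was 33.3%, against 48.6% of all tested genes, 24.9% higher and 23.7% lower. With the block the counts were 1 and 7 (53.3%, against 61.1% of all genes). With library totals they were 1 and 0, against 35.4% and 13.1% of all genes. DESeq2 also called 0 higher, as did edgeR at an unadjusted p below 0.05. Among them Slc25a28, a mitochondrial iron importer, fell by 0.54 on the log2 scale (adjusted p = 0.00453). Urod, of heme synthesis, and the cluster assembly genes Glrx5 and Isca1 gave -0.45, -0.43 and -0.33, with adjusted p = 0.0164, 0.0162 and 0.017. The call of Glrx5 was lost without shear stress library 4 (adjusted p = 0.0526) and that of Isca1 without shear stress library 1 or 4 (0.057 and 0.0572). Library totals ended all 4 calls, with adjusted p from 0.0514 to 0.413. Leaving out shear stress library 4 gave 3 genes called lower.

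Of the 11 genes of peptide loading, partners of the ABC pump TAP, 0 were called higher and 5 lower (median -0.38). The called share was 45.5%, against 48.6% of all tested genes, 24.9% higher and 23.7% lower. DESeq2 and an unadjusted p below 0.05 gave 0 higher too. With the block 7 were called lower (63.6%, against 31.0% of all genes lower and 61.1% called). With library totals it was 1, against 13.1% of all genes, and without shear stress library 3 or 4 there were 3. Tapbpl, B2m, H2-K1 and Canx gave -0.86, -0.48, -0.42 and -0.27, with adjusted p = 0.000547, 0.00236, 0.00261 and 0.0218, while the pump subunits Tap1 and Tap2 were not called (adjusted p = 0.179 and 0.886). The call of Canx was lost without shear stress library 3 or 4 (0.0507 and 0.0772), and with library totals those of Canx, B2m and H2-K1 were lost (0.726, 0.0804 and 0.1).

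In subfamily C, 8 of 9 genes were tested, 2 were called higher and 1 lower, and the median was 0.07. Abcc10, a broad drug and conjugate exporter (chromosome 17, 46303220 to 46328031), had 9.43, 10.8, 10.9 and 12.1 CPM in static and 19.8, 15.3, 16.5 and 14.3 CPM under shear stress. The groups did not overlap, and the rise from 10.8 ± 1.08 to 16.5 ± 2.37 CPM, a log2 fold change of 0.61 ± 0.14, had adjusted p = 0.00606. It was called in all 15 alternatives.

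Abcc6, a liver-enriched transporter whose loss causes the mineralisation disorder pseudoxanthoma elasticum (chromosome 7, 45974110 to 46030491), was lower. Static libraries had 30.6, 21.5, 47 and 32.2 CPM and shear stress libraries 17.4, 17.7, 24.6 and 17.1 CPM. Shear stress library 3 lay within the static range, and each shear stress library was below the static one of its number. The log2 fold change was -0.77 ± 0.23 with adjusted p = 0.019. The call was lost without shear stress library 1 (adjusted p = 0.0513), without shear stress library 4 (0.0542) and on deposited FPKM (0.0597).

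Abcc9, the SUR2 regulatory subunit of ATP-sensitive potassium channels, was called at a low level. It had 0.863, 0.407, 1.36 and 1.08 CPM in static and 1.39, 1.72, 2.31 and 1.98 CPM under shear stress. The groups were adjacent without overlap, and the log2 fold change was 1.01 ± 0.36 with adjusted p = 0.0407. The call was lost without a filter on low counts (adjusted p = 0.0555) and without shear stress library 2, 3 or 4 or static library 1, 2 or 4 (adjusted p between 0.0585 and 0.0949). The pore genes of these channels, Kcnj8 and Kcnj11, were too low to test, and Abcc8, the SUR1 subunit, had at most 3 reads in a library.

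Abcc3, the most abundant ABC gene per length, had 389.6, 353, 429.8 and 509 CPM in static and 433, 452, 496 and 429 CPM under shear stress, so that the ranges overlapped. Its log2 fold change was 0.11 ± 0.12 (adjusted p = 0.492), and it was called higher with library totals (0.33, adjusted p = 0.0415) and on deposited FPKM (0.34, adjusted p = 0.0375). Abcc4, a basolateral exporter of bile acids and cyclic nucleotides, had 30.1, 33.6, 15.2 and 40.4 CPM in static and 58.2, 38, 29.9 and 33.2 CPM under shear stress. It was higher in 3 of 4 numbers and not called (0.42 ± 0.30, adjusted p = 0.281).

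Abcc5, an exporter of cyclic nucleotides, had 27.2, 49.6, 23 and 29.1 CPM in static and 19, 25.5, 17.2 and 23.1 CPM under shear stress. It was lower in all 4 numbers; the unpaired fit gave -0.60 ± 0.24 (adjusted p = 0.059) and the blocked fit -0.56 ± 0.12 (adjusted p = 0.00294). DESeq2 (adjusted p = 0.0377) and the fit without static library 3 (0.0317) called it as well. The log2 fold change was smaller without static library 2 (-0.32, adjusted p = 0.13), with library totals (-0.39, 0.248) and on deposited FPKM (-0.24, 0.493). Abcc1, an exporter of glutathione conjugates, gave 0.03 ± 0.35 (adjusted p = 0.957) and Abcc12 gave -0.15 ± 0.20 (adjusted p = 0.549). Of the bile transporter genes that were set aside, Abcc2 had 556 ± 122 and 346 ± 98.2 CPM (adjusted p = 0.0215) and Abcb11 had 38.1 ± 14.6 and 26.8 ± 9.99 CPM (adjusted p = 0.206, and 0.00106 with the block). The Abcc2 call was lost in 7 alternatives, among them those without static library 1 or shear stress library 2, 3 or 4 (adjusted p between 0.0529 and 0.0625).

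Receptors that regulate drug transporter genes were counted beside these exporters. Of 9 tested, 2 were called higher and 1 lower, and their median was 0.16. The called share was 33.3%, against 48.6% of all tested genes, 24.9% higher and 23.7% lower. The block gave 3 and 1 (44.4%, against 61.1% of all genes), and library totals 4 and 1, against 35.4% and 13.1%. Nr1i2, the pregnane X receptor, rose from 3.02 ± 1.42 to 6.66 ± 2.47 CPM (adjusted p = 0.0281), a call lost without static library 2 or 3 or shear stress library 1 or 3 (adjusted p between 0.0502 and 0.0732). Ppara, the fatty acid receptor, rose from 15.8 ± 4.36 to 25.7 ± 4.22 CPM (adjusted p = 0.0163), and Keap1, the inhibitor of NRF2, fell from 67.4 ± 6.25 to 44.3 ± 2.73 CPM (adjusted p = 0.00102). Both calls held in all 15 alternatives.

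All 4 genes of subfamily D were tested and 1 was called, with a median of 0.04. Abcd4 (chromosome 12, 84601869 to 84617485), which takes part in the exit of vitamin B12 from lysosomes, had 8.69, 3.96, 3.79 and 6.72 CPM in static and 11.6, 16.5, 12.3 and 14.1 CPM under shear stress. The groups did not overlap. The rise from 5.79 ± 2.35 to 13.6 ± 2.19 CPM, a log2 fold change of 1.23 ± 0.27, was larger than that of any other called ABC gene and had adjusted p = 0.00477. It was called in all 15 alternatives, from 1.07 to 1.5.

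The peroxisomal fatty acid importers Abcd2 and Abcd3 were not called. Abcd3, the abundant peroxisomal half-transporter, had 90.7, 69, 104 and 96.7 CPM in static and 88.8, 74.7, 123 and 91 CPM under shear stress, higher in 2 numbers and lower in 2 (0.07 ± 0.17, adjusted p = 0.764). Abcd2, at little more than 1 CPM, gave -0.17 ± 0.75 (adjusted p = 0.87).

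Of 13 other genes of peroxisomal import and oxidation, 2 were called higher and 6 lower, and their median was -0.28. The called share was 61.5%, against 48.6% of all tested genes, 24.9% higher and 23.7% lower. The block gave 2 and 9 (84.6%, against 61.1% of all genes), and library totals 3 and 4, against 35.4% and 13.1%. Scp2, with a thiolase and a sterol carrier form, the acyl-CoA synthetase Slc27a2 and the bifunctional enzyme Ehhadh gave log2 fold changes of -0.81, -0.74 and -0.75, with adjusted p = 0.0165, 0.00892 and 0.00967. These 3 calls held in all 15 alternatives. The count of higher genes fell to 0 or 1 without any 1 of the 8 libraries.

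The 4 genes of subfamilies E and F were tested and 0 were called by edgeR (median 0.05), with 0 also by DESeq2 and at an unadjusted p below 0.05. Abce1, which splits ribosomes after termination, had 176, 192, 169.9 and 178 CPM in static and 186, 189, 199 and 192 CPM under shear stress. The ranges overlapped; the log2 fold change was 0.10 ± 0.08 (adjusted p = 0.33), and with upper quartile factors, library totals and deposited FPKM it was called higher at 0.23, 0.32 and 0.32. Abcf2 had 126 ± 26.1 and 101 ± 8.87 CPM (-0.32 ± 0.15, adjusted p = 0.0984, and 0.013 with the block); it was also called without static library 1 (0.0403). Abcf1, of translation initiation, had 152 CPM in each group (log2 fold change 0.0028 ± 0.12, adjusted p = 0.988), and Abcf3 gave 0.12 ± 0.11 (adjusted p = 0.414).

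Of 11 tested genes of translation and ribosome recycling, 1 was called higher and 2 lower (median -0.01): the kinase gene Eif2ak4 at 0.44, the release factor gene Etf1 at -0.47 and the rescue factor gene Hbs1l at -0.39, with adjusted p = 0.0249, 0.00178 and 0.0187. The called share was 27.3%, against 48.6% of all tested genes, 24.9% higher and 23.7% lower. With library totals 2 were called higher and 1 lower, against 35.4% and 13.1% of all genes. The Etf1 call held in all 15 alternatives, that of Eif2ak4 was lost without static library 1, 3 or 4 or shear stress library 2 or 3 (adjusted p between 0.0514 and 0.0729), and that of Hbs1l without shear stress library 1 or 2 (0.0595 and 0.0527) and with library totals (0.227).

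In subfamily G, 3 of 5 genes were tested and edgeR called 0 (median -0.02), with 0 also by DESeq2 and at an unadjusted p below 0.05. Abcg2, a canalicular exporter of drugs and urate, had 65.3, 29.3, 44.1 and 54 CPM in static and 54.2, 33.8, 47.5 and 54.2 CPM under shear stress, with overlapping ranges (-0.02 ± 0.24, adjusted p = 0.944). Abcg1 and Abcg4, which pass cholesterol to lipoproteins, had at most 10 and 7 reads in a library and were not tested.

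Abcg5 and Abcg8 encode the partner subunits of the sterol pump that exports cholesterol and plant sterols into bile, and their genes lie head to head on chromosome 17 with 82 exon bases in common on opposite strands, whose reads cannot be told apart if counting ignored strand. Abcg5 had 2.77, 1.4, 3.34 and 2.58 CPM in static and 2.31, 1.88, 1.67 and 1.53 CPM under shear stress (-0.44 ± 0.29, adjusted p = 0.243). Abcg8 had 3.88, 0.931, 1.67 and 2.52 CPM in static and 4.86, 2.82, 1.9 and 1.75 CPM under shear stress (0.33 ± 0.46, adjusted p = 0.58). The groups overlapped for both.

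As a TPM ratio, Abcg5 over Abcg8 was 1.14, 2.38, 3.1 and 1.63 in static and 0.753, 1.06, 1.4 and 1.38 under shear stress. The mean log2 ratio was 0.94 ± 0.63 in static and 0.16 ± 0.42 under shear stress (SD, n = 4), and the difference of -0.79 had a two-sided exact permutation p of 0.114, or 0.229 adjusted over 2 ratios, where 0.0286 is the smallest p that 4 against 4 allows. The ratio was lower under shear stress in all 4 numbers, and an exact sign-flip test of the 4 paired differences, added after seeing the data, gave p = 0.125 (0.25 adjusted over 2 ratios), the smallest it allows.

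Genes of sterol efflux and of the liver X receptor (LXR), which drives Abca1, Abcg1, Abcg5 and Abcg8, were counted last. Of 12 tested, 1 was called higher and 7 lower, and their median was -0.42. The called share was 66.7%, against 48.6% of all tested genes, 24.9% higher and 23.7% lower. The block gave 1 and 7 too, against 61.1% of all genes called, and library totals 3 and 2, against 35.4% and 13.1%. Nr1h3, the gene of LXR-alpha, rose from 27.1 ± 3.98 to 40.8 ± 5.67 CPM (adjusted p = 0.00663). Its partner Rxra, the plasma enzyme gene Lcat and the lysosomal sterol carrier Npc2 fell by 0.54, 0.67 and 0.41 on the log2 scale, with adjusted p = 0.00224, 0.00188 and 0.00268. With library totals the Npc2 call was lost (0.138), while Nr1h3, Rxra and Lcat were called in all 15 alternatives. Without static library 3, 2 genes were called higher.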

How the data were processed

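Per the labels, hepatocyte RNA was extracted with TRIzol, made into libraries with phi29 reagents and sequenced on DNBSEQ. The submitters' processing notes name HISAT, Bowtie2, RSEM and GRCm38 (mm10); versions, annotation and use of strand were not given there. The read counts that the authors deposited are estimated counts (up to 10.7% per library not whole, tolerance 1e-09) and were rounded. The TPM values deposited by the authors were used for levels and ratios between genes. The FPKM values deposited by the authors served 1 alternative, limma on log2(FPKM + 0.1) for genes with a mean of at least 0.1.

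Genes were filtered with filterByExpr, scaled with TMM and fitted on the whole table in edgeR 4.0.16 (R 4.3.3). The fit set shear stress against static, without a block. A standard error (SE) is the log2 fold change over the root of its F value. The script was tested on simulated data with independent libraries, which share no deviations by replicate number. Alternatives were 3 other scalings, DESeq2 1.42.0, limma 3.58.1 on FPKM, no filter, a replicate block and leaving out each library. Titles share the numbers 1 to 4. Deviations from group means correlated between same-numbered libraries (r = 0.679, 0.642, 0.56 and 0.467 over 8446 genes, and at most -0.0178 between other numbers). The labels do not say what the numbers mark. The main fit therefore did not use this pairing, and the blocked fit, which did, is given beside it. No 2 libraries of a group agreed within sampling noise (chi-square per degree of freedom at least 45.2).

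The genes and lists were chosen with earlier results of these data known. Tested ABC genes are named; called ones with a mean of at least 5 CPM, and 13 set ones, get every library's value, as do Abcc5, Abcc9 and Atg9a, which with Cnn2 were added after their values were seen. Of each partner list, up to 4 called genes by smallest p are named. Some genes that this rule names are not reported here. Coordinates are from RefSeq, GRCm38.p6.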

Additional observations from a re-analysis of the deposited data

Results flagged for a closer look

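In 3 of the 62 combinations of ABC gene and group, 1 library stood far from the other 3 by Dixon's test at the 95% level; chance flags about 1 in 20. Abcb6 was at 87.8 CPM in static library 3, next to 69.6 CPM in the nearest. Abcb8 was at 23.8 CPM in shear stress library 1, next to 17.6 CPM. Abcc6 was at 24.6 CPM in shear stress library 3, next to 17.7 CPM.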

How the results depend on the processing

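Abca1, Abcb6, Abcc10 and Abcd4 kept their calls in all 15 alternatives. The counts of ABC genes called higher and lower, 4 and 4, became 8 and 3 with library totals, 8 and 1 on deposited FPKM and 6 and 9 with the replicate block, where the causes were not tested; leaving out 1 library gave 3 to 4 higher and 2 to 5 lower. The lowest count, 2 lower, came without shear stress library 1 or 4. By subfamily, the block gave 3 lower in A, 2 higher in B, 2 lower in C and 1 lower in E with F, and it gave 2 lower for Abcb11 with Abcc2 and 1 higher for heme and iron-sulfur genes. FPKM gave 0 lower in A, 2 higher and 1 lower in B, 0 lower in C and 1 higher in E with F. Library totals gave 2 higher and 1 lower in B and 1 higher in E with F, and upper quartile factors 1 higher and 1 lower in B and 1 higher in E with F. DESeq2 gave 2 lower in C, and no filter 1 lower in B and 1 higher in C. Leaving out 1 library gave 1 to 2 lower in A, 0 to 1 higher and 1 to 2 lower in B, 1 to 2 higher and 0 to 2 lower in C and 0 to 1 lower in E with F.

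For partner lists, upper quartile factors, library totals and FPKM gave, in that order, 1, 1 and 2 higher and 1, 0 and 1 lower for heme and iron-sulfur genes, 3, 1 and 1 lower for peptide loading, 2, 2 and 2 higher and 1, 1 and 1 lower for translation, and 0, 0 and 0 lower for Abcb11 with Abcc2. Over all genes these settings, in the same order, called 31.1%, 35.4% and 33.1% higher and 16.9%, 13.1% and 13.0% lower. Library totals and FPKM gave 3 and 2 higher and 2 and 3 lower for sterol efflux, and 4 and 4 higher for xenobiotic receptors. No filter gave 0 higher for the peroxisome list. Leaving out 1 library gave 0 to 1 higher and 3 to 6 lower for heme genes, 3 to 7 lower for peptide loading, 0 to 1 higher for the peroxisome list, 1 to 2 higher for sterol efflux, 0 to 1 higher and 1 to 2 lower for translation, 1 to 3 higher for xenobiotic receptors and 0 to 1 lower for Abcb11 with Abcc2.

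Signs turned for uncalled genes whose log2 fold change was smaller in size than its standard error. Abcb8 was -0.01 with relative log expression factors, with DESeq2 and with no filter, where Abcf1 was -0.0042, -0.0039 and -0.0038; with the block Abcf1 was -0.00084 and Abcg2 0.01. Abcg2 was 0.11 with upper quartile factors, and library totals and FPKM gave 0.20 and 0.23 for Abcg2 and 0.08 and 0.10 for Abcc12; Abcd2 was 0.05 with library totals. Without 1 library, values ran from -0.11 to 0.10 for Abcb8, -0.21 to 0.29 for Abcc1, -1.22 to 0.20 for Abcd2, -0.09 to 0.17 for Abcd3, -0.09 to 0.09 for Abcf1, -0.20 to 0.15 for Abcg2, -0.04 to 0.73 for Abcg8 and -0.35 to 0.32 for the Abcb1b over Abcb1a ratio. With pairing by number, added after seeing the data, exact sign-flip tests of the ratios gave p = 1 and 0.125. The smallest p that this test allows is 0.125, so neither ratio could have passed. The block changed no call of an ABC gene other than the 7 it added. The 9 untested genes had at most 13 reads in a library, and whether depth or a lack of transcript lies behind this was not tested.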
